A study of Mus musculus with 8 samples.

Results

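Antibody V segments that are typical of B-1 cells were followed in RNA from whole mouse pituitary. The 5 segments are the heavy chain segments Ighv11-1, Ighv11-2 and Ighv12-3 and the kappa light chain segments Igkv14-126 and Igkv4-91. They are 5 of the 49585 rows listed for each library and 5 of the 341 Ighv and Igkv segments among those rows (181 Ighv and 160 Igkv). They were chosen by name, with their values per library in these same data already known, so their levels and their joint presence are given as a description and no test was run on them. Old pituitary came from wild-type (WT) C57BL/6 mice of 18 to 24 months and young pituitary from WT C57BL/6 mice of 2 to 3 months, with 4 libraries per age. All mice were kept under specific pathogen free conditions on a regular chow diet and were perfused to remove blood before polyadenylated RNA was sequenced. Neither the labels nor the methods tie each library to its own mouse, so a p-value here measures only how far these samples spread, which may be technical.

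B-1 cells are innate-like B cells that renew themselves in the body cavities and secrete natural IgM and part of the IgA of the gut. Their antibodies use a restricted set of V segments, joined with few added bases. Ighv11-2 with Igkv14-126, and Ighv12-3 with Igkv4-91, are the classical heavy and kappa pairs of B-1 cells that bind phosphatidylcholine, a lipid of cell membranes and bacteria. The heavy chains of these antibodies are usually joined to the J segment Ighj1. None of the segments is exclusive to B-1 cells, so their transcripts alone do not name the cell they came from.

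All coordinates are of the mouse genome build GRCm38, with genes and exon lengths of GENCODE M21, in which each of the 5 segments is annotated as a V gene of 2 exons overlapped by no other gene. RefSeq lists Igkv14-126 as a V segment pseudogene instead. Ighv11-1 (ENSMUSG00000094533.1) lies on the minus strand of chromosome 12 from 113981879 to 113982341. Ighv11-2 (ENSMUSG00000096108.2) lies on the same strand from 114048241 to 114048812, and Ighv12-3 (ENSMUSG00000076676.2) from 114366521 to 114366954. Igkv14-126 (ENSMUSG00000094345.2) lies on the plus strand of chromosome 6 from 67896172 to 67896642, and Igkv4-91 (ENSMUSG00000076532.3) on the minus strand from 68768555 to 68769103.

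How well each segment can be told from its nearest copy decides how its fragments can be read, so the last 150 bases of the V exon are shown for the detected segments, next to the closest other segment, 5′ to 3′ on the coding strand. Capitals mark the bases at which the 2 sequences of a pair differ. The first pair is Ighv11-2 (chr12:114048241-114048390, minus strand) and Ighv11-1 (chr12:113981879-113982028, minus strand):
Ighv11-2: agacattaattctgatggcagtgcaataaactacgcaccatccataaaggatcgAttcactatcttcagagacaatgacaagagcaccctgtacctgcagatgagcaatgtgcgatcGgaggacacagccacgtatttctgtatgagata
Ighv11-1: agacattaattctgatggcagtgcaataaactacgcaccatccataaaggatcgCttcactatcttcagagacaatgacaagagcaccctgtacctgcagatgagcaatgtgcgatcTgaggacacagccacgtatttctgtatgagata
These stretches differ at 2 bases, and the whole V exons of 307 bases differ at 4 (98.7% identity), with a longest shared run of 162 bases. How fragments that match both copies were counted is not given in the sources used here. They may have been split between the rows or left out, so the separate counts and also their sum are uncertain. After each other, the closest of the 338 segments compared were Ighv4-1 and Ighv5-1, both at 75.9% identity to Ighv11-1 and 76.55% to Ighv11-2.

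The second pair is Igkv14-126 (chr6:67896493-67896642, plus strand) and its closest copy Igkv14-111 (chr6:68256720-68256869, plus strand):
Igkv14-126: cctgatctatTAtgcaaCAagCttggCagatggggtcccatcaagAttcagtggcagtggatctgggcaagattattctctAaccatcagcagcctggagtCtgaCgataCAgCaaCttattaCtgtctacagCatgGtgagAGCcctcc
Igkv14-111: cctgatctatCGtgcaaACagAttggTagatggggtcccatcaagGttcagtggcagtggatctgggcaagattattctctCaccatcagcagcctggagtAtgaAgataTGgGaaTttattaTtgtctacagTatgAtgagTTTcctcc
Here 20 bases of the stretch and 27 bases of the V exon of 298 bases differ (90.9% identity), and the longest shared run is 44 bases. The segments at 0 were also set apart from their neighbours: Ighv12-3 came no closer to another segment than 80% (Ighv3-2) and Igkv4-91 no closer than 88.0% (Igkv4-60).

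Values are FPKM, in which fragments are divided by the exon length of the segment and by the library total. The number of fragments was computed back from each FPKM, the exon length and a library total (15042321 to 20429604 fragments). These totals were fitted to the FPKM, as the numbers at which low values come out as whole fragments. They are estimates and not counted totals. A listed 0 can hide up to 3 fragments, which corresponds to 0.147 to 0.199 CPM (fragments scaled to library size alone). All intervals and limits of this kind cover counting error only. The gland itself was recognisable, with prolactin (Prl) at 83140 ± 10690 FPKM in old and 82120 ± 4883 FPKM in young pituitary and growth hormone (Gh) at 24330 ± 3157 FPKM in old and 62320 ± 5846 FPKM in young pituitary (SD, n = 4 each). Gh and Lhb, a subunit of luteinising hormone (136 ± 9.11 FPKM in old and 233 ± 39.3 FPKM in young pituitary, n = 4 each), were the 2 of 7 pituitary genes that passed the limma test described further on, both lower in old pituitary (adjusted p = 0.0076 and 0.044), and none was higher. With 1 library left out, Gh kept its call in 8 of 8 fits and Lhb only without young replicate 2 (adjusted p otherwise up to 0.12). Lhb also lost it at a pseudocount of 0.01 and without the filter (0.052 and 0.060).

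Of the 5 segments, 3 had fragments in old pituitary and none had any in young pituitary. Absence from young pituitary was common among Ighv and Igkv segments. It held for 62 of the 91 with at least 3 fragments in the old libraries and for 24 of the 36 with at least 10. Among the 5, those detected were the Ighv11 segments and Igkv14-126, that is 1 of the 2 phosphatidylcholine-binding pairs with its near copy. Ighv11-2 and Igkv14-126 were present in old replicates 2, 3 and 4 and Ighv11-1 in old replicates 2 and 3, and none of them in old replicate 1. Ighv12-3 and Igkv4-91, the other pair, were at 0 in all 8 libraries. The counts are low, 50 fragments in all over the 4 old libraries. In bulk RNA, fewer cells of a type and less RNA per cell cannot be told apart, and this holds for every level given here.

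Ighv11-2, the heavy chain segment of the first pair, had 0, 6, 6 and 7 fragments in old replicates 1 to 4, against 0 in each of the 4 young libraries. In FPKM these were 0, 0.704, 0.675 and 0.868 in old pituitary. The positive old libraries were alike, and old replicate 1 was at the level of the young libraries. The old mean was 0.562 ± 0.384 FPKM (SD, n = 4) and the young mean 0. Pooled and scaled to library totals, old pituitary was 6.30-fold higher if the 4 young libraries together are credited with the 3 fragments that a count of 0 allows. This takes the old count as observed and ignores the spread between old libraries, so it is not a lower bound.

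Its near copy Ighv11-1 had 0, 3, 1 and 0 fragments in old replicates 1 to 4 (0, 0.460, 0.147 and 0 FPKM), against 0 in each young library. Its 4 fragments all fell in libraries that also held Ighv11-2. The old mean was 0.152 ± 0.217 FPKM (SD, n = 4), smaller than its own spread. The ratio to young pituitary, computed as for Ighv11-2, was 1.33-fold, and 4 fragments are too few to tell it from no difference. Both Ighv11 segments together gave 0, 9, 7 and 7 fragments in the old libraries.

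Igkv14-126, the kappa chain partner of Ighv11-2, had 0, 10, 14 and 3 fragments in old replicates 1 to 4 (0, 1.51, 2.03 and 0.479 FPKM), against 0 in each young library. It was the highest of the 5 segments in old replicates 2 and 3, and lower than Ighv11-2 in old replicate 4. The old mean was 1.00 ± 0.929 FPKM (SD, n = 4) and the young mean 0. The ratio computed as for Ighv11-2 was 8.95-fold, with the same limits. By mean FPKM in old pituitary the order was Igkv14-126, Ighv11-2, Ighv11-1, then Ighv12-3 and Igkv4-91 at 0. The libraries of neighbouring segments overlapped at each step, so this order does not stand beyond their spread.

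**Figure D1:**
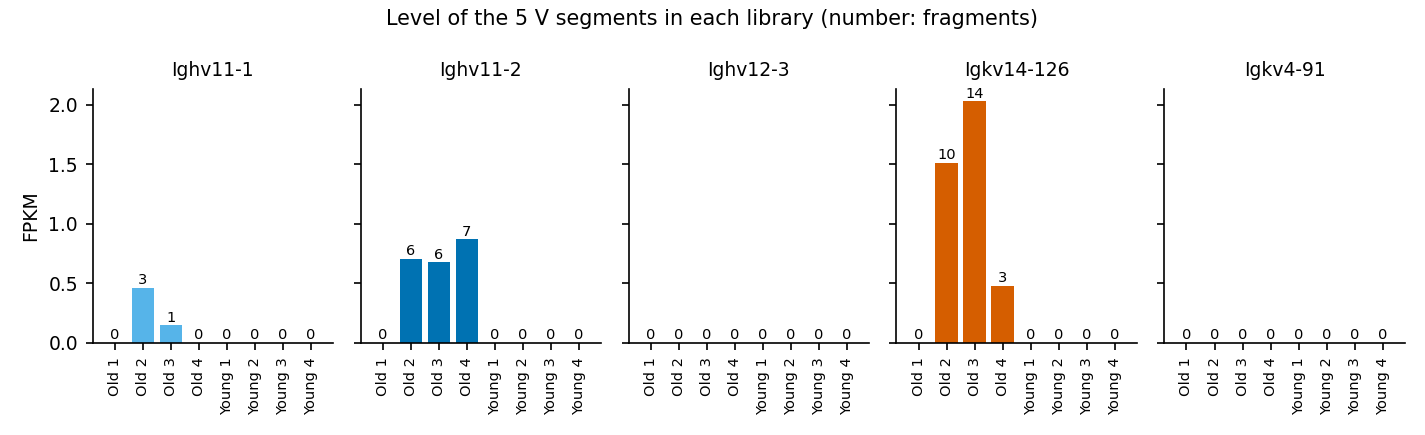
Level of each of the 5 V segments in FPKM (vertical axis) in old replicates 1 to 4 and young replicates 1 to 4 (horizontal axis); the number above each bar is its fragments. Ighv11-2 and Igkv14-126 have bars in old replicates 2, 3 and 4, Ighv11-1 in old replicates 2 and 3, and all other positions are at 0.

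Because old replicate 1 was at 0, none of the 5 segments had all old libraries above all young ones. Over all genes, limma on log2(FPKM + 0.1) called 436 of 23498 tested genes higher in old pituitary (1.86%) and 111 lower (0.472%) at a Benjamini-Hochberg adjusted p under 0.05, and at an unadjusted p under 0.05 the shares were 18.0% higher and 3.79% lower. These are the background for the gene counts given further on. The median log2 difference over all tested genes was 0.15, and 0.0082 after rescaling by the median ratio, so differences on the log2(FPKM + 0.1) scale given here hold the general shift of 0.15. Ighv11-2 (mean over 8 libraries of 0.281 FPKM) and Igkv14-126 (0.502 FPKM) passed the minimum mean of 0.1 FPKM for that test through their old libraries alone. Ighv11-1 (0.0758 FPKM), Ighv12-3 and Igkv4-91 did not pass it.

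The design also allowed asking whether heavy and kappa partners were found in the same libraries. Ighv11-2 and Igkv14-126 were both present in 3 of 4 old libraries, and both absent from old replicate 1 and from all 4 young libraries. No library had 1 partner without the other, also when at least 2 fragments were required of each. The amounts did not keep a fixed proportion. Ighv11-2 fragments divided by Igkv14-126 fragments came to 0.60 in old replicate 2, 0.43 in old replicate 3 and 2.33 in old replicate 4. These are ratios of raw fragments, over unlike exon lengths of 461 and 358 bases. In FPKM, Ighv11-2 and Igkv14-126 were at 0.704 and 1.51, 0.675 and 2.03, and 0.868 and 0.479 in these libraries. The uncertain split of fragments between Ighv11-2 and Ighv11-1 bears on both measures. Ighv12-3 and Igkv4-91 were together in no library. Short fragments of bulk RNA carry 1 chain each, so these counts show presence in the same library and not pairing within a cell. T15-type segments, another heavy and kappa pair typical of B-1 cells that binds phosphorylcholine (Ighv7-1 and Igkv7-33), were also at 0 in all 8 libraries.

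**Figure D2:**
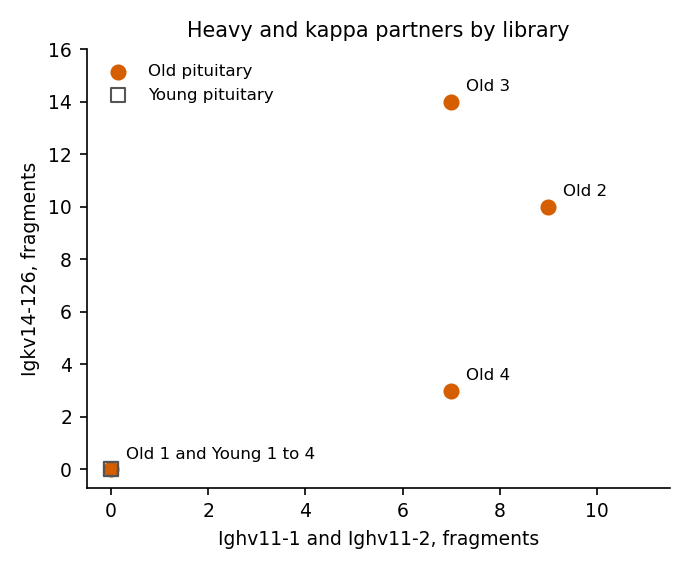
Fragments of Igkv14-126 (vertical axis) against the sum of Ighv11-1 and Ighv11-2 fragments (horizontal axis), 1 point per library. Old replicates 2, 3 and 4 lie at 9 and 10, 7 and 14, and 7 and 3 fragments (heavy, then kappa), and old replicate 1 and the 4 young libraries lie together at 0.

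Presence in old replicates 2, 3 and 4 but not in old replicate 1 was seen for other segments as well. Of the 36 Ighv and Igkv segments with at least 10 fragments in the old libraries, 7 were at 0 in old replicate 1, and 3 of these (8.33% of the 36) were above 0 in old replicates 2, 3 and 4: Ighv11-2, Igkv14-126 and Igkv8-30. Igkv8-30 also had 1 fragment in young pituitary, so at this minimum only the 2 partners were also at 0 in all young libraries. With at least 3 fragments, 7 of 91 segments (7.69%) showed the pattern over old libraries, the partners included. Of these 7, 4 were also at 0 in young pituitary, again with the partners included. By the Bray-Curtis distance between the distributions of their fragments over the 8 libraries (0 when identical), the segments most like Ighv11-2 among 68 others with at least 5 fragments were Ighv5-17 (0.18), Igkv15-103 (0.19) and Igkv4-63 (0.21). Igkv14-126 came sixth, at 0.26, against a median of 0.48. Most like Igkv14-126 were Igkv4-53 (0.11), Igkv3-7 (0.13) and Igkv8-30 (0.18), with Ighv11-2 at 0.26 against a median of 0.50. The partner was therefore not the closest segment by this measure in either direction.

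The segments were next set against all V transcripts of the same library. V segments as a whole gave 232, 354, 289 and 163 fragments in old replicates 1 to 4, against 15, 27, 27 and 8 in young replicates 1 to 4. The 5 segments held 0% of them in old replicate 1 (95% Wilson interval up to 1.63%), 5.37% in old replicate 2 (3.46 to 8.23%), 7.27% in old replicate 3 (4.80 to 10.9%) and 6.13% in old replicate 4 (3.37 to 10.9%). Old replicate 1 thus fell outside the counting intervals of the other 3, which overlapped each other. Replicates of 1 age differed by more than counting error over all genes, and these values were known beforehand. The intervals are therefore no test of a difference between libraries. The mean was 4.69 ± 3.22% (SD, n = 4). In young libraries the share was 0%, but 15, 27, 27 and 8 fragments allow shares of up to 20, 11.1, 11.1 and 37.5%.

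With libraries pooled, the 5 segments made up 50 of 1038 V fragments in old pituitary (4.82%, 95% Wilson interval 3.67 to 6.29%) and 0 of 77 in young pituitary, where 0 allows a share of up to 3.90%. The limit in young lies inside the old interval. Such an overlap cannot decide whether the shares of the ages differ, and a difference in share was not tested. The fragments themselves were found in old pituitary alone, as were those of 62 of the 91 segments with at least 3 fragments there. The pooled intervals leave out the spread between libraries, which ran from 0 to 7.27% in old pituitary. By chain, the heavy segments made up 23 of 310 Ighv fragments in old pituitary (7.42%, 4.99 to 10.9%) and 0 of 8 in young pituitary. Igkv14-126 made up 27 of 728 Igkv fragments in old pituitary (3.71%, 2.56 to 5.34%) and 0 of 69 in young pituitary, which allows 4.35%. For Ighv12-3, 0 of 310 Ighv fragments in old pituitary allows a share of up to 0.968%. For Igkv4-91, 0 of 728 Igkv fragments allows up to 0.412%, the tightest limit of the 5.

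Old replicates 2 to 4 split these shares differently between the chains. The heavy segments held 8.04, 8.14 and 18.9% of Ighv fragments in these libraries, and Igkv14-126 held 4.13, 6.90 and 2.38% of Igkv fragments. Old replicate 4 had the highest heavy share and the lowest kappa share of the 3, on 37 Ighv and 126 Igkv fragments.

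**Figure D3:**
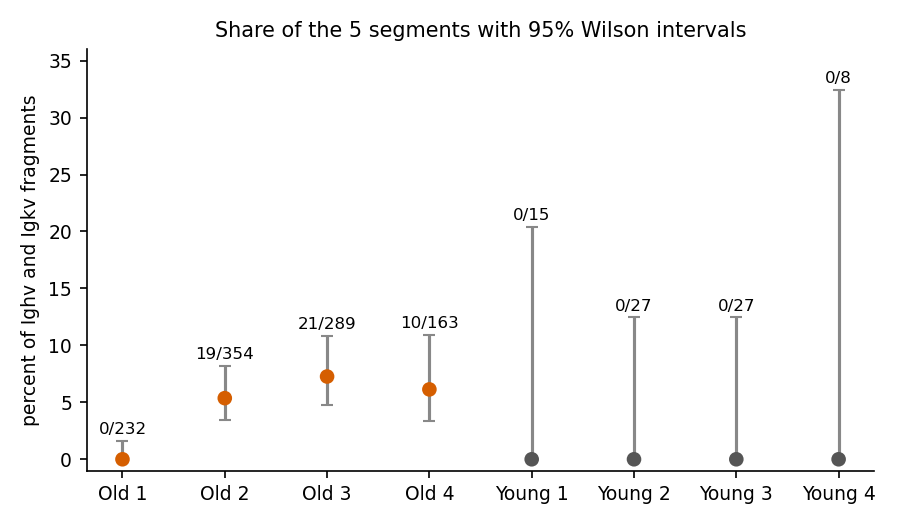
Share of the 5 segments among all Ighv and Igkv fragments in percent (vertical axis) in old replicates 1 to 4 and young replicates 1 to 4, with 95% Wilson intervals (bars) and the fragments behind each share. Old replicates 2 to 4 lie between 5.37 and 7.27%, old replicate 1 and all young libraries are at 0, and the young intervals are wide.

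Among heavy chain segments, Ighv11-2 had more fragments in old pituitary than any other of the 181, by fragments and by mean FPKM alike. The margin was small: it had 19 fragments, against 16 for Ighv14-3, 14 for Ighv1-18 and 13 each for Ighv1-26 and Ighv8-8. By mean FPKM, which divides by its exon length of 461 bases, it almost vanished. Ighv11-2 was at 0.562, against 0.559 for Ighv1-18, 0.542 for Ighv8-8 and 0.539 for Ighv14-3. Ighv14-3 had 3, 0, 13 and 0 fragments in old replicates 1 to 4. The order of these segments therefore does not stand beyond their spread over libraries. Within libraries, Ighv11-2 was the fourth of the Ighv segments in old replicate 2, the third in old replicate 3 (shared with another segment) and the first in old replicate 4, where it held 7 of 37 Ighv fragments (18.9%, 9.48 to 34.2%). Ighv11-1 stood 23rd among Ighv segments.

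Igkv14-126 was the fifth of the 160 Igkv segments in old pituitary with 27 fragments, after Igkv1-117 (86), Igkv1-110 (54), Igkv6-15 (37) and Igkv3-4 (28). Within libraries it was the sixth in old replicate 2, the fourth in old replicate 3 and the 11th in old replicate 4, where 6 segments shared its 3 fragments. In old replicate 1, which held neither partner, the leading segments were Igkv1-110 (21 fragments), Igkv1-117 (14) and Igkv4-57-1 (13). Igkv1-117 also led old replicate 2 (22 fragments) and old replicate 3 (35), and Igkv3-4 led old replicate 4 (27). For scale, 148 of the 341 segments were above 0 in at least 1 old library, with a median of 4 fragments, and 37 in at least 1 young library.

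**Figure D4:**
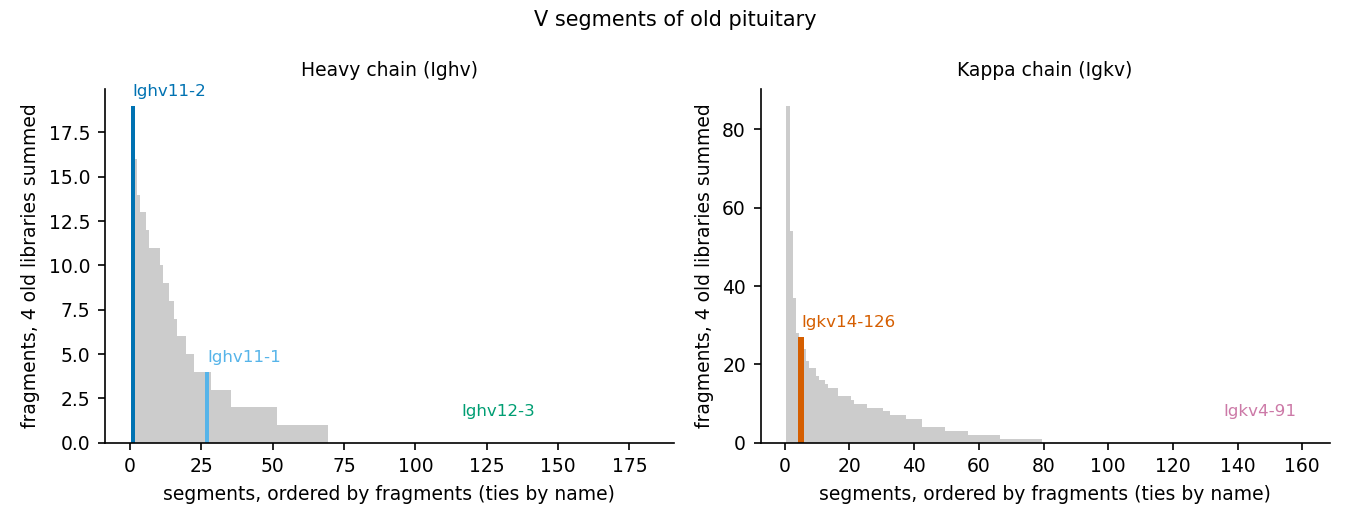
Fragments of every Ighv segment (left) and Igkv segment (right) summed over the 4 old libraries (vertical axis), ordered from most to fewest (horizontal axis), with the 5 segments in colour. Ighv11-2 is at the left end of the heavy chain panel with 19 fragments, Igkv14-126 is the fifth in the kappa panel with 27, and Ighv12-3 and Igkv4-91 are among the segments at 0.

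The families of the 5 segments differed. Ighv11 consists of Ighv11-1 and Ighv11-2, which gave 23 fragments in old and 0 in young pituitary. The 3 Ighv12 segments were all at 0 in both ages. In Igkv14, 3 of 8 segments were above 0 in old pituitary with 38 fragments in all and 0 in young pituitary. Beside Igkv14-126, the other 7 held 11 of these 38, and the highest was Igkv14-111 with 7. Igkv4-91 was at 0 although its family was well represented: 23 of the other 32 Igkv4 segments were above 0 in old pituitary (145 fragments, at most 19 in 1 segment) and 15 in young pituitary (40 fragments).

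V segments other than the 5 were also more abundant in old pituitary. They reached 13.8 ± 3.86 CPM in old and 1.11 ± 0.584 CPM in young pituitary (SD, n = 4 each), 12.5-fold higher in old pituitary (two-sided exact permutation test, p = 0.029, the smallest p that 4 against 4 allows). All 4 old libraries lay above all 4 young ones, old replicate 1 included. Heavy chain segments alone were 37.1-fold and kappa chain segments alone 9.80-fold higher.

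The constant genes that V segments are joined to were read next, since B-1 cells make mostly IgM and some IgA. Of 9 antibody constant genes tested, 3 passed the limma test higher in old pituitary (Igha, Igkc and Ighm) and none lower, with a median log2 difference of 1.43 over the 9. Ighm, the heavy chain of IgM, had 115, 116, 108 and 114 fragments in old replicates 1 to 4, against 33, 20, 52 and 31 in young replicates 1 to 4. The old libraries were nearly equal, and the level was 3.39 ± 0.337 FPKM in old and 0.993 ± 0.271 FPKM in young pituitary (SD, n = 4 each), a log2 difference of 1.70 (SE 0.18, limma adjusted p = 0.011). The presence of the Ighv11 and Igkv14-126 transcripts did not follow Ighm, which was as high in old replicate 1 as in the others.

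Igha, the heavy chain of IgA, had 367, 597, 361 and 260 fragments in old replicates 1 to 4, against 7, 8, 7 and 9 in young replicates 1 to 4. Its level was 8.31 ± 2.81 FPKM in old and 0.166 ± 0.0319 FPKM in young pituitary (SD, n = 4 each), a log2 difference of 4.93 (SE 0.23, limma adjusted p = 0.00030). Igkc, the kappa constant gene to which Igkv14-126 would be joined, was at 24.8 ± 5.33 FPKM in old and 0.840 ± 0.456 FPKM in young pituitary (SD, n = 4 each; log2 difference 4.82, SE 0.33, limma adjusted p = 0.0026). The size of these differences depended on the pseudocount: with 1 in place of 0.1 FPKM, the log2 difference was 2.95 for Igha, 3.82 for Igkc and 1.15 for Ighm. Old replicate 1, without any of the 5 segments, had the second highest Igha count of the 8 libraries. Ighd, the heavy chain of IgD on naive B cells, was low throughout, with 1, 3, 2 and 3 fragments in old and 3, 1, 4 and 7 in young libraries.

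All 9 J segments were tested, and Ighj3, Igkj2 and Igkj4 passed higher in old pituitary with none lower (median log2 difference 4.48 over the 9). With 1 library left out, these calls held only without young replicate 3 (Ighj3), young replicate 2 (Igkj2) or young replicate 1 (Igkj4), with adjusted p otherwise up to 0.10, 0.10 and 0.12. All 3 were lost at a pseudocount of 0.01 (0.065, 0.094 and 0.069), and those of Igkj2 and Igkj4 also after median-ratio scaling (0.053 and 0.056) and without the filter (0.052 and 0.056). Ighj1, the usual J segment of the phosphatidylcholine-binding heavy chains, had 11, 13, 8 and 15 fragments in old replicates 1 to 4, against 1, 0, 2 and 2 in young replicates 1 to 4. Its old libraries all lay above its young ones, with a log2 difference of 3.86 (SE 0.95), but missed the limma threshold at adjusted p = 0.077. It passed at a pseudocount of 1 (0.010, log2 difference 2.67), at a filter of 1 FPKM (0.044), with a mean-variance trend (0.049) and without young replicate 2 (0.017). Its share of Ighj fragments was 26.8, 21.3, 22.2 and 48.4% in old replicates 1 to 4, on 41, 61, 36 and 31 Ighj fragments. Old replicate 4, in which Ighv11-2 led the heavy chain, had the highest Ighj1 share, while old replicate 1 without Ighv11 fragments had the next highest.

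The label of the segments was set beside genes of B-1 cells, B cells and plasma cells, in lists drawn up with earlier results of these data known. Of 8 B-1 cell genes tested, none passed the limma test in either direction (3 higher and 1 lower at an unadjusted p under 0.05, median log2 difference 0.30). Bhlhe40 (7.42 FPKM in old, 8.91 FPKM in young) and Bhlhe41 (6.16 and 5.03 FPKM) were far above the 5 segments in both ages. Such genes cannot show whether a few B-1 cells were present. Spn (CD43), a surface protein of B-1 cells, was at 0.469 ± 0.117 FPKM in old and 0.177 ± 0.0872 FPKM in young pituitary (SD, n = 4 each, limma adjusted p = 0.073). All its old libraries lay above all its young ones. Cd5, which marks B-1a cells, was below the minimum mean, at 0.0901, 0.0784, 0.0251 and 0.166 FPKM in old replicates 1 to 4, against 0, 0, 0.0473 and 0.0264 FPKM in young replicates 1 to 4. The name B-1 therefore rests on what is known of the V segments and not on other B-1 cell genes in these libraries.

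Of 6 B cell genes tested, none passed the limma test either (4 higher and 1 lower at an unadjusted p under 0.05, median log2 difference 0.51). Of 9 plasma cell genes tested, Jchain and Slamf7 passed higher and none lower (5 higher and 1 lower at an unadjusted p under 0.05, median log2 difference 0.38). Jchain, which links IgM and IgA into polymers, had 44, 112, 58 and 21 fragments in old replicates 1 to 4, against 1, 2, 9 and 3 in young replicates 1 to 4, a log2 difference of 2.84 (SE 0.45, limma adjusted p = 0.028), and of 1.02 at a pseudocount of 1. With 1 library left out, that call held only without old replicate 4 and was lost in the other 7 fits (adjusted p up to 0.076). The call of Slamf7 held only without old replicate 4 or young replicate 2 (otherwise up to 0.099), and it was also lost at a pseudocount of 1, after median-ratio scaling (adjusted p = 0.058 each) and with a mean-variance trend (0.057). Of 3 recombination genes tested, none passed the limma test (0 higher and 0 lower also at an unadjusted p under 0.05).

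Other cell types could move with the 5 segments, and their levels stand here for comparison. The 4 hemoglobin genes of red blood cells summed to 15.7, 121, 123 and 88.1 FPKM in old replicates 1 to 4, against 12.6, 14.4, 75.8 and 108 FPKM in young replicates 1 to 4. Old replicate 1, the old library without the segments, had the lowest hemoglobin of the old libraries. Young replicates 3 and 4 had hemoglobin in the range of the other old libraries or close to it, and held none of the segments. They had only 27 and 8 V fragments in all, where 0 allows shares of up to 11.1 and 37.5%. Blood left after perfusion as a part of the result was not tested beyond these values. None of the 5 red blood cell markers passed the limma test, and their sum ran from 15.9 to 124 FPKM in old and from 13.0 to 110 FPKM in young libraries.

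Ms4a1 (CD20), a defining surface protein of B cells, was near 0, with 5, 14, 2 and 6 fragments in old replicates 1 to 4, against 1, 0, 1 and 2 in young replicates 1 to 4, and did not reach the minimum mean for the test. The ages met at 2 fragments. Old replicate 3, with the most fragments of the 5 segments (21), had fewer Ms4a1 fragments than old replicate 1, which had none of the segments. The 4 B cell markers reported summed to between 2.04 and 2.78 FPKM in old and between 2.07 and 2.87 FPKM in young libraries. This sum hides opposite moves. Its largest member by mean, Cd79b, was lower in old pituitary and Cd79a was higher. Neither was past the limma threshold at the main settings, and Cd79b passed it under some alternatives (values further on). Equal sums therefore do not show equal levels of each B cell gene. The 5 plasma cell markers summed to 2.69 to 5.84 FPKM in old and 3.40 to 4.48 FPKM in young libraries, with only Jchain called higher. Sdc1, the largest of them by mean, was at 2.28 FPKM in old and 3.58 FPKM in young pituitary (limma adjusted p = 0.12). Jchain was at 1.29 FPKM in old and 0.0790 FPKM in young pituitary, so the sum does not show its rise. The 5 macrophage markers summed to 44.6 to 62.1 FPKM in old and 20.6 to 36.2 FPKM in young libraries, with all 5 higher at an unadjusted p under 0.05. Lyz2 was the 1 marker called, a call that held only without young replicate 4 when 1 library was left out (adjusted p otherwise up to 0.12). It was also lost at a pseudocount of 0.01 (0.059), without the filter (0.063) and after median-ratio scaling (0.054). The part of these cells in the result was not tested.

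**Figure D5:**
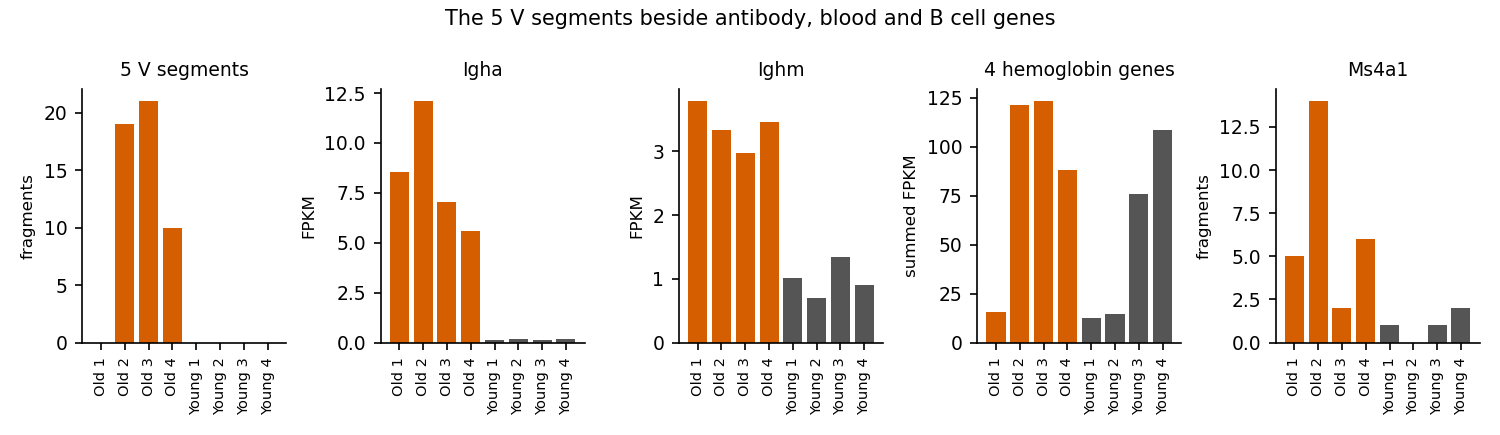
From left to right, fragments of the 5 V segments, FPKM of Igha, FPKM of Ighm, summed FPKM of 4 hemoglobin genes, and fragments of Ms4a1 (vertical axes), each in old replicates 1 to 4 (orange) and young replicates 1 to 4 (grey). Old replicate 1 has no fragment of the 5 segments, yet the second highest Igha, the highest Ighm and the lowest hemoglobin of the old libraries.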

How the data were processed

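Whole pituitary of old and young mice was profiled by mRNA sequencing, with 4 libraries per age. Per the study's methods and processing notes, the authors aligned reads with STAR (version 2.6.1a) to GRCm38, counted paired-end fragments over Ensembl exons with featureCounts, and deposited FPKM computed with edgeR (version 3.28.1). Neither an Ensembl release nor a strand setting is named for the counting (not given in the sources used here). Each deposited list holds 49585 rows, of which 95 symbols stand on more than 1 row. The fitted totals were 15042321 to 20429604 fragments per library. Fragments were computed back from FPKM with GENCODE M21 exon lengths. Of the values under 50 fragments, 91.3 to 92.1% per library came out whole within 0.01, and those of all V and J segments did. The totals were fitted to make low values whole, so this share is in part built in and is no independent check.

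The 5 segments and the gene lists were chosen with earlier results of these data known. Every one of the 5 is named. List genes are named where they passed the test or where a low level bears on the segments. Other V segments are named when they form the Ighv7-1 and Igkv7-33 pair, lead an old library or are closest in Bray-Curtis distance. The heavy and kappa segments next in rank, Igkv14-111 and the closest copies by sequence were named after their values were seen. So were Prl, Spn, Sdc1, Bhlhe40, Bhlhe41, Cd79a, Cd79b and Tnfrsf13b. Itgam and Tent5c were not analysed here, and some list genes are not reported here. Genes whose mean over the 8 libraries reached 0.1 FPKM were tested with limma (version 3.58.1, R 4.3.3) on log2(FPKM + 0.1) with Benjamini-Hochberg adjustment. This fit was tried on simulated data with 1 spread for all genes. Changes were planted there only in genes above a minimum of expected fragments, so the trial does not cover calls on genes with fewer. Summed V segments were compared by exact permutation, and shares have Wilson intervals (scipy 1.17.1, Python 3.11.15). A count of 0 was taken to allow 3 fragments. Replicates of 1 age differed by more than sampling noise (chi-square per degree of freedom 8.77 to 23.1). Sequences are from GENCODE M21 transcripts. Alternatives were other pseudocounts, filters and scalings, a mean-variance trend, a replicate block, single chains and each library left out in turn.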

Additional observations from a re-analysis of the deposited data

How the results depend on the processing

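The low counts are the main limit: 1 to 14 fragments stand behind each value above 0 of the 5 segments, and 0 of the 77 V fragments of young pituitary leaves shares of up to 3.90% possible there. Leaving out an old library, the 5 segments kept 29 to 50 fragments (50 with all), and 50 with the smallest fitting length. Their mean share was 8.77% for the heavy chain alone (4.69% with both chains), 3.35% for the kappa chain alone, 4.39% in FPKM, and 3.83 to 6.26% with an old library left out, the highest without old replicate 1. The libraries with both partners were the same at 2 fragments. Other V segments were 10.4- to 15.7-fold higher in old pituitary with a library left out (exact permutation p = 0.057, the smallest that 4 against 3 allows).

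Genes called higher in old pituitary (436) were 689 at a pseudocount of 1, 263 without the filter, 796 at a filter of 1 FPKM, 213 after median-ratio scaling, 705 with the trend and 64 to 327 with a library left out. Genes called lower (111) were 216 after median-ratio scaling and 21 to 163 with a library left out. Median-ratio scaling thus gave 213 higher and 216 lower. Replicate numbers did not pair the samples (correlations of same-numbered libraries -0.037 to 0.037, and 1 of 4 matched its own number best), and with the replicate block 4 genes were higher and 0 lower. Igha kept its call under all 7 alternatives, the block included (adjusted p = 0.029), and in all 8 fits without a library. Ighm and Igkc lost theirs only with the block (adjusted p = 0.13 and 0.11). Over the 17 list genes refitted, 165 values under an alternative stayed on the same side of the threshold, 73 were no longer past it and 7 passed it newly. The direction turned only for Prl, which was near 0 (0.01) and came to -0.14 after median-ratio scaling and to -0.072 to 0.056 with a library left out, negative without old replicate 2 or young replicate 2. The pseudocount moved low genes: Ighj3 was 3.33 at 1 and 8.33 at 0.01, Igkj2 3.88 and 7.51, Igkj4 2.78 and 7.74, Slamf7 0.31 and 1.24, and Jchain 1.02 and 3.93 (log2 differences).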

Other observations

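Further genes of the lists above, not given there by value, stood as follows. Tnfrsf13b (TACI), a receptor of B-1 and marginal zone B cells, was at 0.166 ± 0.0704 FPKM in old and 0.0498 ± 0.0358 FPKM in young pituitary (SD, n = 4 each; limma adjusted p = 0.12). Cd79a, a signalling chain of the B cell receptor, was at 0.941 ± 0.338 FPKM in old and 0.345 ± 0.116 FPKM in young pituitary (limma adjusted p = 0.074), whereas its partner Cd79b was at 1.30 ± 0.0923 FPKM in old and 2.19 ± 0.448 FPKM in young pituitary (limma adjusted p = 0.067). Cd79b passed the limma threshold as lower at a filter of 1 FPKM and after median-ratio scaling (adjusted p = 0.036 each). It also passed without young replicate 2 (0.026). Under the other alternatives it missed the threshold, and Cd79a missed it under all. Ighe was at 0 in all 8 libraries.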
